A study of Ovis aries with 9 samples.

Results

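The hypothalamus of Dolang ewes was compared between prepuberty and postpuberty at the level of protein-coding genes. The comparison used 6 of the 9 libraries of the study, 3 from ewes in prepuberty (aged 120 to 121 days) and 3 from ewes in postpuberty (150 to 151 days). The 3 remaining libraries came from ewes in puberty (130 to 131 days) and are given only where their values bear on a gene. All ewes were untreated and kept under the same conditions, and each library held the poly(A) RNA of hypothalamic tissue from 1 animal. Stage was judged from behaviour and the state of the vulva, prepubertal and postpubertal ewes both being calm and refusing the ram. A postpubertal ewe was also older than a prepubertal one, so stage and age cannot be told apart. Expression was measured as FPKM (fragments counted per unit of transcript length and of sequenced library), and the FPKM of all RefSeq mRNAs of a gene was summed. Of the 21284 genes with an mRNA in the annotation, the 12625 whose FPKM averaged 1 or more in either stage were kept. The gene just inside this limit was TRMT9B, with a mean of 1.0010 in its higher stage, and the one just outside was OPRM1, with 0.9992. Differences are given on the log2(FPKM + 1) scale as postpuberty minus prepuberty, and the values of a stage are given in the order of libraries 1, 2 and 3.

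Puberty begins when neurons of the hypothalamus that make gonadotropin-releasing hormone (GnRH) raise their pulsatile release into the portal blood of the pituitary. Kisspeptin, neurokinin B and dynorphin, made by neurons of the arcuate nucleus, drive and restrain these pulses, and feedback from ovarian oestradiol shapes them. The same tissue holds peptide neurons that govern feeding, growth, stress and water balance, dopamine neurons that restrain prolactin, and glia, among them the tanycytes that line the third ventricle. Each library therefore averages many cell types, and in such bulk tissue fewer cells of a type and less RNA per cell cannot be told apart.

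The 6 libraries were alike in size. Their mRNAs summed to an FPKM of between 228861 and 260566, and between 11719 and 12320 genes reached an FPKM of 1. The mRNAs held between 58.706% (Prepuberty 3) and 67.918% (Postpuberty 3) of the FPKM. A further 14.343% to 17.396% of the FPKM lay on assembled transcripts without a RefSeq identifier, which were assigned to no gene. Entries of other kinds, neither RefSeq transcripts nor assembled, held between 12.922% (Postpuberty 3) and 24.865% (Prepuberty 3) and were also left out. Neurons and glia were well represented, but defining genes of the hypothalamus were not. Of 17 hypothalamic markers, 7 were kept and 9 stayed under an FPKM of 1 in each of the 6 libraries. NR5A1, a transcription factor of the ventromedial nucleus, and FEZF1 were listed at 0 in all 6 libraries. NKX2-1, which patterns the ventral hypothalamus, had a highest FPKM of 0.262. The feeding peptide AGRP reached at most 0.169 and the peptide PMCH at most 0.4. Oxytocin (OXT) and vasopressin (AVP), among the most abundant mRNAs of magnocellular neurons, reached at most 4.81 and 3.15. The tissue label was therefore carried by few of its markers, and which part of the hypothalamus each library held was not tested.

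Not 1 gene passed the test between the stages. In limma, 0 of the 12625 genes (0.00%) reached an adjusted p below 0.05 with an absolute log2 difference of at least 1, and the smallest adjusted p was 1.0. An unadjusted p below 0.05 was reached by 187 genes (1.48%), under the share of 0.05 expected without any difference. Of these genes, 114 were higher (0.903%) and 73 lower (0.578%) in postpuberty. Without Prepuberty 2, 382 genes had such a p, and without Prepuberty 1 limma called 3 genes, ASIP, RPL37A and RXFP2. The median standard error of a log2 difference was 0.24.

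What the libraries do show is which genes had every postpuberty library on one side of every prepuberty library. This held for 556 genes (4.40%). Of these, 399 (3.16%) were higher and 157 (1.24%) lower in every postpuberty library, and 39 and 18 of them carried only a LOC identifier. For a gene of this kind the exact permutation test, two-sided, gives p = 0.1, and 3 libraries against 3 can give no smaller value, so separation is a description and not a call. If the stage labels were exchangeable, a share of about 0.1 of the genes would separate, so 4.40% is no excess over chance. Most separations were narrow. The median gap between the nearest libraries of the stages was 0.07 among the higher and 0.09 among the lower genes, and a gap of at least 0.5 was found for 11 and 16 genes. The median absolute difference was 0.34 among the 399 genes and 0.42 among the 157. An absolute difference of at least 1 was found for 23 of the higher and 35 of the lower genes, 58 in all (0.459%).

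The excess of higher over lower genes depended on the scaling between libraries. Higher genes made up 71.8% of the separated genes in the deposited FPKM values. This share was 59.4% when the gene sums of the libraries were brought to equal totals (298 higher, 2.36%, and 204 lower, 1.62%) and 51.3% when their upper quartiles were equalised (243 higher, 1.93%, and 231 lower, 1.83%). After quantile normalization it was 48.6% (250 higher, 1.98%, and 264 lower, 2.09%). The median difference over all genes was 0.05 before and 0.001 after upper quartile scaling. Of the 399 higher genes, 207 still separated the stages in the same direction after upper quartile scaling, as did 139 of the 157 lower genes.

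**Figure D1:**
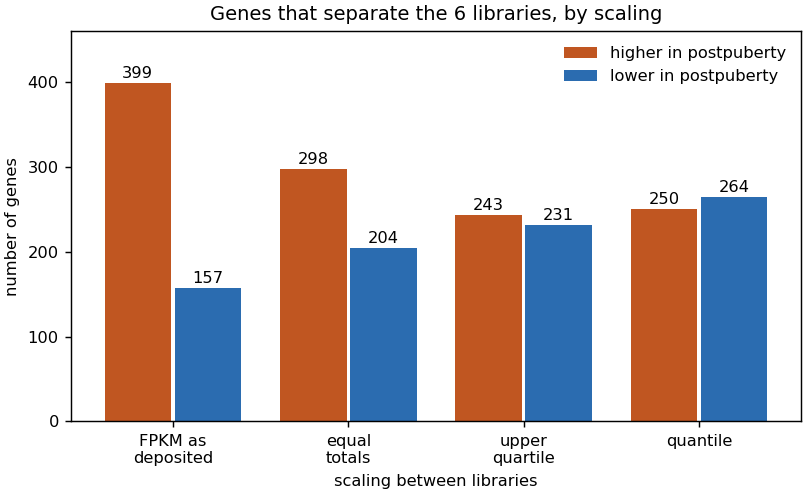
Bars give the number of genes (vertical axis, from 0) whose 3 postpuberty libraries all lay above (orange) or all below (blue) the 3 prepuberty libraries, under each of 4 scalings between libraries (horizontal axis). The 399 higher and 157 lower genes of the deposited values became 250 and 264 after quantile normalization.

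The named genes are the 15 in each direction with the widest gap between the stages among genes with a symbol other than a LOC identifier. Some passed the filter only through the stage where they were high, with a mean FPKM under 1 in the other. These were TH, P3H3, SSTR3, DERA, LAMA4 and TMEM220 among the higher genes and ITPR1, RAC3, SCYL2 and DDAH2 among the lower. Each of these 30 genes also separated the stages after upper quartile scaling, with equal totals and after quantile normalization, which their choice by the widest gap made likely. For 28 of them the most abundant transcript alone separated the libraries in the same direction, CHL1 and SPTAN1 being the exceptions. Of the 30, 8 have 1 RefSeq mRNA, so for these the outcome was fixed in advance. All had an adjusted p of 1.0 in limma.

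The widest gap among the higher genes was that of CBLN1 (chromosome 14, 17264053 to 17267524), a secreted protein that joins presynaptic neurexin to glutamate delta receptors. Its FPKM was 1.59, 1.68 and 2.34 in prepuberty and 37.1, 9.17 and 5.54 in postpuberty. Postpuberty 1 was far above the other libraries, and the lowest postpuberty library still had more than every prepuberty library. The means were 1.87 ± 0.409 and 17.3 ± 17.2 (SD, n = 3 each), with a log2 difference of 2.26 (SE 0.63). The puberty libraries had 4.92, 14.6 and 15.3, all above prepuberty.

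CHL1, a neural cell adhesion molecule of the L1 family that takes part in axon growth (chromosome 19, 26013104 to 26242346), had 3.11, 0.104 and 0.866 in prepuberty and 8.23, 6.13 and 6.61 in postpuberty. The postpuberty libraries lay close together and the prepuberty libraries far apart. The difference was 1.96 (SE 0.47). It was spread over 26 of 40 annotated transcripts, of which the most abundant held 15.2% of the FPKM and did not separate the stages by itself.

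TH, tyrosine hydroxylase, the rate-limiting enzyme of dopamine and noradrenaline synthesis (chromosome 21, 45764210 to 45770799), had 0.619, 0.0545 and 1.52 in prepuberty and 20.2, 2.87 and 3.05 in postpuberty. As for CBLN1, Postpuberty 1 stood far above the rest. The means were 0.732 ± 0.74 and 8.7 ± 9.94, and the difference was 2.09 (SE 0.72). The dopamine transporter SLC6A3, chosen after its values were seen, had 0.0835, 0 and 1.15 against 12.5, 1.92 and 0.259, so it was high in the same library but its stages overlapped. The other genes of dopamine synthesis and storage, DDC, GCH1 and SLC18A2, also overlapped between the stages. DDC, the decarboxylase that follows TH, had 4.59, 0.851 and 5.13 against 1.67, 1.67 and 7.68.

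SSTR3, a somatostatin receptor of neuronal cilia (chromosome 3, 181254926 to 181267320), had 0.396, 0.256 and 0.65 in prepuberty and 1.65, 1.62 and 1.4 in postpuberty. Its levels were low in both stages. The postpuberty libraries lay close together, while the prepuberty libraries ran from 0.256 to 0.65. The difference was 0.84 (SE 0.20), and the stage means differed 3.59-fold. Somatostatin itself (SST) overlapped widely, with 13.1, 95.4 and 23.4 against 4.27, 19.3 and 107. The receptors SSTR1 and SSTR2 overlapped as well.

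PCBP4, a poly(C)-binding RNA-binding protein (chromosome 19, 49039565 to 49049528), had 11.6, 14.8 and 11.7 in prepuberty and 43.0, 25.1 and 54.5 in postpuberty. The difference was 1.55 (SE 0.30). Its neighbour ABHD14A, a hydrolase, was lower in every postpuberty library and is among the 15 lower genes, with 3.96, 4.48 and 5.73 against 2.15, 1.45 and 1.6. The annotated spans of these genes share 2068 bases. PCBP4 also shares 5010 bases with LOC132658215, likewise higher in every postpuberty library (0.674, 0.854 and 0.473 against 1.02, 1.12 and 1.38), and ABHD14A shares 3995 with ABHD14B. In addition, the strand setting of the quantification is not given in the sources used here, so reads of a shared part cannot be told apart. The spans of TBCCD1, DERA, TMEM220, TMEM234, SCYL2 and DDAH2 share between 370 and 4448 bases with a protein-coding neighbour, to which the same applies. In puberty PCBP4 had 8.13, 56.1 and 7.49, so Puberty 1 and 3 were below the prepuberty libraries and Puberty 2 above every postpuberty library.

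P3H3, of the prolyl hydroxylase family that modifies collagen, had 0.753, 1.13 and 0.523 against 2.69, 3.03 and 3.69, a difference of 1.21 (SE 0.21). VWC2, a secreted antagonist of bone morphogenetic proteins, had 1.54, 1.69 and 0.638 against 3.08, 5.04 and 4.22. LAMA4, a laminin chain of vascular basement membranes, had 0.552, 0.28 and 0.923 against 2.12, 1.7 and 2.15. The SDs within a stage were at most 0.987 FPKM for these genes, but their levels were low. Relative to its mean the prepuberty spread was wide, as for LAMA4 from 0.28 to 0.923 and VWC2 from 0.638 to 1.69.

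NEDD4L, a ubiquitin ligase that removes sodium channels from the membrane, had 3.03, 4.78 and 4.91 against 10.2, 8.57 and 7.52 (difference 0.91, SE 0.21). DERA, an aldolase of deoxyribose phosphate, was listed at 0 in Prepuberty 1 and Prepuberty 3 and had 1.68 in Prepuberty 2, against 3.46, 2.8 and 2.84. NT5DC2 had 5.78, 2.49 and 3.99 against 15.5, 8.21 and 12.6. TBCCD1, FAAP20, TMEM220 and TMEM234 completed the list, with differences of 0.77, 0.84, 0.64 and 0.62. Among genes with LOC identifiers the widest gaps belonged to LOC121820433 (difference 1.77) and LOC114108725 (1.26).

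The widest gap of all separated genes was in the lower direction, at ITPR1 (chromosome 19, 21511652 to 21859937). ITPR1 is the inositol trisphosphate receptor that releases calcium from the endoplasmic reticulum, a step in signalling by receptors coupled to Gq, the kisspeptin and GnRH receptors among them. Its FPKM was 6.25, 2.37 and 2.68 in prepuberty and 0.0607, 0.0758 and 0.0726 in postpuberty. The prepuberty mean of 3.77 ± 2.15 was 54.0-fold that of postpuberty, 0.0697 ± 0.00793. The postpuberty mean lies far below the filter, so this ratio is uncertain. Assembled transcripts without a RefSeq identifier are not in the sum, and their part in these values was not tested. On the log2(FPKM + 1) scale the difference was -2.07 (SE 0.33). The puberty libraries, with 0.172, 0.0111 and 0.0811, were as low as postpuberty. Of its 13 transcripts, the most abundant held 49.4% of the FPKM and separated the stages by itself. A pair of noncoding genes lie within the span of ITPR1 in part, LOC105603426 sharing 32346 bases and LOC121817218 sharing 9932. LOC105603426 also shares 647 bases with BHLHE40, a clock-related repressor next to ITPR1 that was lower as well (2.63, 3.61 and 2.03 against 1.29, 1.44 and 1.81).

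CALCR, the calcitonin receptor (chromosome 4, 11558214 to 11671579), had 17.1, 21.1 and 15.5 in prepuberty and 0.442, 0.135 and 6.13 in postpuberty. The prepuberty libraries agreed closely, while Postpuberty 3 held most of the postpuberty signal. The means of 17.9 ± 2.92 and 2.24 ± 3.38 differed 8.0-fold, and the log2 difference was -3.05 (SE 0.68). The annotation gives CALCR 1 mRNA. In puberty it had 9.64, 0 and 0.251, so Puberty 1 lay between the stages.

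SEPTIN7 and SPTAN1 came after IVNS1ABP in the order of the gap. SEPTIN7, a core subunit of septin filaments, had 22.4, 11.9 and 12.8 against 0.0327, 5.75 and 0.137, a difference of -3.01 (SE 0.74). As for ITPR1, the part of assembled transcripts in the values of SEPTIN7 was not tested. SPTAN1, the alpha chain of brain spectrin, had 37.5, 82.0 and 64.1 against 17.6, 14.6 and 21.3, a difference of -1.67 (SE 0.31). It was spread over 26 transcripts, of which the most abundant held 12.8% and did not separate the stages. PHACTR1, a regulator of protein phosphatase and actin, had 15.9, 13.3 and 18.5 against 2.32, 8.78 and 4.86. RAC3, a small GTPase, had 3.66, 2.96 and 2.41 against 0.844, 0.673 and 1.13.

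Relative to its SE, the largest difference of the named genes belonged to IVNS1ABP, a kelch-domain protein that binds actin. It had 10.3, 7.42 and 10.9 in prepuberty and 2.89, 2.59 and 1.81 in postpuberty, a difference of -1.62 (SE 0.21). MED14, a backbone subunit of the Mediator complex of transcription, had 10.1, 8.54 and 12.4 against 3.68, 4.8 and 3.58. CRKL, an adaptor of tyrosine kinase signalling, had 54.8, 53.0 and 26.7 against 1.81, 17.8 and 11.6. Of the 15 named lower genes, only SPTAN1 had a higher prepuberty mean (61.2) than CRKL (44.8). The puberty libraries of CRKL (50.3, 37.6 and 55.4) were as high as prepuberty. TTC7B, WFDC2, BFSP2, SCYL2 and DDAH2 completed the list, with differences of -1.64, -1.68, -0.83, -0.87 and -0.85. Among LOC genes the widest gaps were those of LOC121818175 (difference -2.04) and LOC101121371 (-1.14), the latter with 253, 184 and 206 against 93.3, 82.8 and 115.

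**Figure D2:**
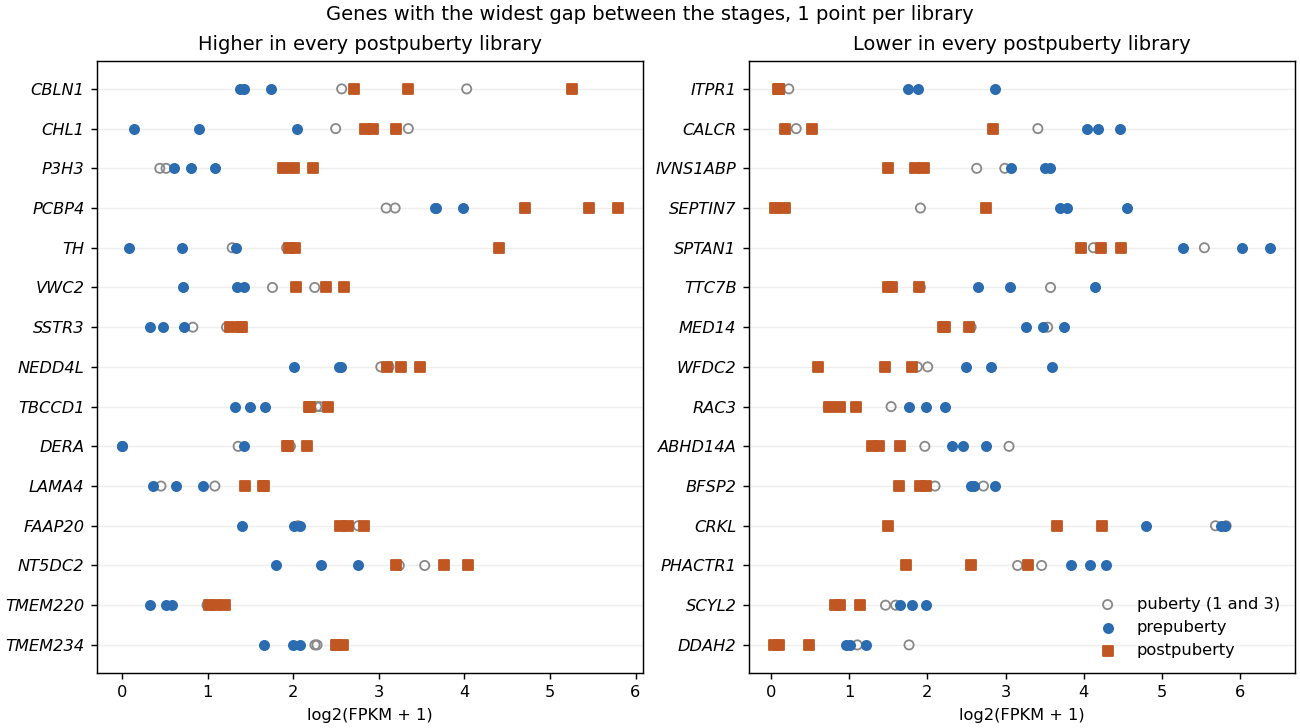
Each row is a gene and each point a library, placed by log2(FPKM + 1) on the horizontal axis, with prepuberty as blue circles, postpuberty as orange squares and Puberty 1 and 3 as open grey circles. The 15 higher genes (left) and 15 lower genes (right) are ordered by the gap between the stages, from 0.97 at CBLN1 and 1.65 at ITPR1, and the open circles fall on either side.

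Of 29 genes known for their part in puberty, 16 were kept. In the deposited values 0 of the 16 separated the stages, too few genes to set apart from the 4.40% of all genes, and 1 did after quantile normalization. Their median difference was 0.03, beside 0.05 over all genes. GNRH1 was listed at 0 in all 9 libraries. Kisspeptin (KISS1) reached at most 0.303 and its receptor KISS1R at most 0.214. Neurokinin B (TAC3) had 0.211, 3.49 and 1.87 against 0.403, 0.207 and 2.73, and dynorphin (PDYN) had 0.272, 4.48 and 0.941 against 0.398, 7.35 and 4.14. DLK1, a gene linked to the timing of puberty, had 7.37, 3.6 and 1.93 against 0.45, 1.22 and 9.5. The spread within a stage was wide for these peptides, and the oestrogen receptor ESR1 and the puberty inhibitor MKRN3 stayed near or under 1 in every library. Of the 40 genes kept from G-protein signalling and the GnRH secretion pathway, ITPR1 alone separated the stages (2.5%, below the 4.40% of all genes). ITPR2, its paralog, had 4.52, 3.84 and 4.02 against 4.87, 3.98 and 3.03.

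POMC, the precursor of melanocortins and beta-endorphin, was the only gene of 18 other neuropeptides kept that separated the stages (5.56%, near the 4.40% of all genes). It had 2.09, 2.72 and 4.1 in prepuberty and 17.4, 10.7 and 4.37 in postpuberty, a difference of 1.43 (SE 0.46). Prepuberty 3 and Postpuberty 3 were almost level, and the separation was lost after upper quartile scaling, with equal totals and after quantile normalization. POMC is also a product of the pituitary, as is prolactin (PRL), which had 3.28, 0.0562 and 25.6 in prepuberty and 199.5, 74.4 and 8.46 in postpuberty. The 10 pituitary markers summed to an FPKM of 38.6, 123 and 103 in prepuberty and 233, 197 and 108 in postpuberty. Most of the prepuberty sums was CHGA alone, with 32.7, 123 and 74.5 in prepuberty and 28.9, 119.6 and 94.3 in postpuberty. The part of pituitary RNA in the POMC values was not tested.

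Across 23 lists of functions, 839 genes were kept, of which 16 were higher and 6 lower in every postpuberty library (2.62%, beside 4.40% of all genes). Extracellular matrix genes had the highest median difference, 0.26, and 0.21 after upper quartile scaling. Of the 51 matrix genes, 40 had a positive difference, beside 7983 of all 12625 genes, but LAMA4 alone separated the stages. Within a stage, some of these genes varied widely, such as COL1A1, with 29.3, 3.66 and 3.02 against 39.6, 2.11 and 15.7. Markers of meningeal fibroblasts, which include COL1A1, followed the same order, with sums of 191, 34.5 and 34.4 against 226, 31.3 and 97.2. Their part in the matrix values was not tested.

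Cholesterol synthesis had the lowest median difference, -0.17, and -0.23 after upper quartile scaling. Of its 23 genes, 5 had a positive difference, beside the same 7983 of 12625. TM7SF2, a sterol reductase, separated the stages with 20.0, 17.1 and 17.6 against 14.7, 15.7 and 14.8 (difference -0.26, SE 0.14), 1 of 23 genes and so 4.35%, near the 4.40% of all genes. SQLE, the squalene epoxidase, had 44.1, 32.0 and 37.8 against 29.1, 29.3 and 35.3, so its stages overlapped, and Prepuberty 1 was the highest library. Mature oligodendrocytes, the cells that make the cholesterol of myelin, had marker sums of 15384, 6851 and 13990 in prepuberty and 15280, 7210 and 9520 in postpuberty. Of their 13 markers, 10 had a positive difference, at a median of 0.15, and 0.09 after upper quartile scaling. The part of these cells in the cholesterol values was not tested.

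Axon guidance and growth held the most separated genes of the 23 lists, 4 higher and 1 lower of 69 (7.25%, beside 4.40% of all genes), at a median of 0.04. Besides CHL1 these were the plexin PLXNB3 (3.94, 2.0 and 3.67 against 6.62, 5.15 and 4.73), the guidance receptor ROBO2, the semaphorin SEMA6C and, lower, the contactin CNTN5. PLXNB3 had a difference of 0.65 (SE 0.25), and the gaps of the other 3 were at most 0.06. Genes of DNA and histone methylation, a list that also holds deacetylases, gave 3 higher and 0 lower of 60 (5.0%, near the 4.40% of all genes). These were the demethylase KDM5C (16.1, 16.2 and 15.9 against 19.8, 16.3 and 16.5), the methyltransferase SETDB1 and the deacetylase HDAC6, which acts mainly on tubulin. Their differences of 0.11, 0.34 and 0.34 were small. KDM5C did not separate the stages under any of the 3 other scalings, nor did CNTN5 with equal totals or after quantile normalization, SETDB1 with equal totals or SEMA6C after quantile normalization.

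The remaining lists held at most 2 separated genes each, counts too small to set apart from the 4.40% of all genes. In the proteasome, PSMC6 and PSMD11 were higher of 46 genes (4.35%), with differences of 0.21 and 0.13. PSMD11 lost its separation under each of the 3 other scalings, and PSMC6 under upper quartile scaling and equal totals. In the cytosolic ribosome, RPL37A was higher of 75, with 213, 3.84 and 3.63 against 468, 441 and 243. Its difference of 4.46 (SE 1.48) was the largest of all separated genes, and Prepuberty 1 was nearer to the postpuberty libraries than to the other prepuberty libraries. Reads of ribosomal protein genes can also be shared with processed copies elsewhere in the genome, so its values are uncertain. Heat shock genes gave DNAJC17 (0.29) and DNAJB12 (-0.32) of 65, and the respiratory chain gave NDUFB1 (-0.24) of 61. Channels and receptors gave KCNK12 (0.61) of 81 voltage-gated and related ion channels and the kainate receptor GRIK5 (0.42) of 18 glutamate receptors. GRIK5 did not separate the stages under any of the 3 other scalings. Immediate-early genes (24 kept), interferon-stimulated genes (26) and synaptic vesicle release (32) gave 0 in the deposited values, while immediate-early genes gave 1 lower after upper quartile scaling and 2 lower after quantile normalization.

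**Figure D3:**
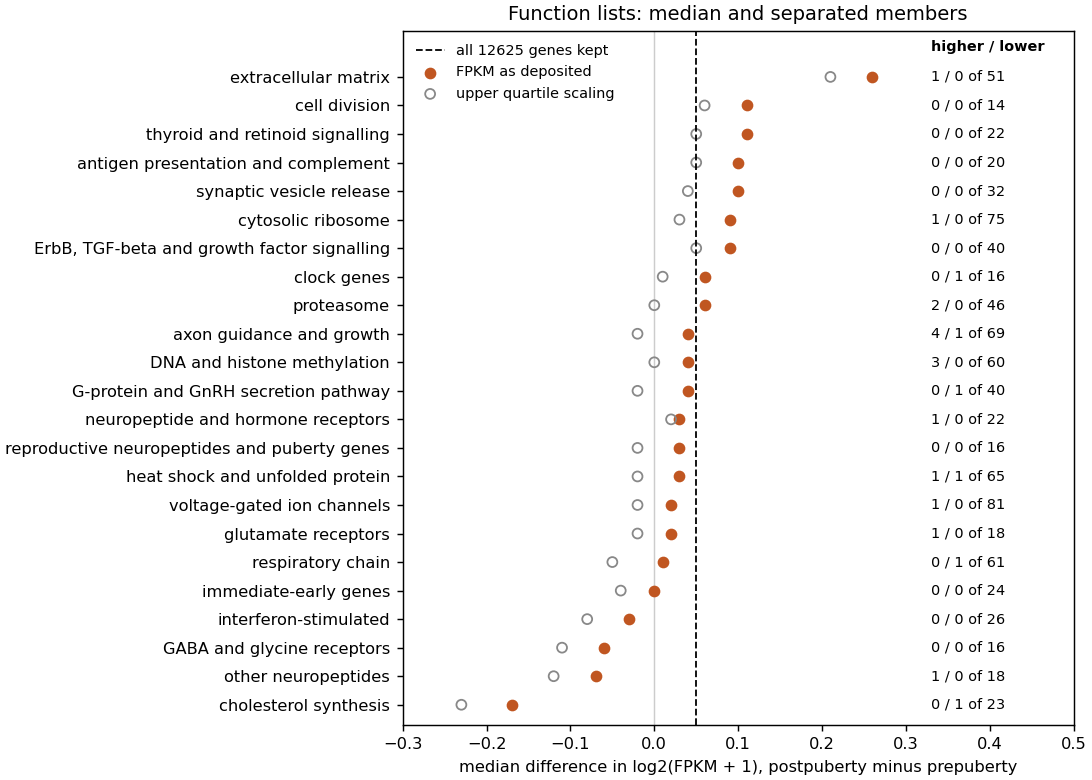
Each row is a list of functions, with the median difference in log2(FPKM + 1) of its kept genes on the horizontal axis, in the deposited FPKM (filled) and after upper quartile scaling (open). The dashed line marks the median of all 12625 genes, 0.05, and the right column gives the genes higher and lower in every postpuberty library of those kept. Extracellular matrix (0.26) and cholesterol synthesis (-0.17) lie farthest from the line.

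Marker levels of cell types varied widely within each stage. The 14 neuron markers summed to an FPKM of 1056, 2945 and 2224 in prepuberty and 827, 2691 and 2800 in postpuberty, so the library numbered 1 was lowest in both stages. Astrocyte markers summed to 9985, 5100 and 6467 against 8518, 5009 and 7166. Microglia markers had 617, 199 and 259 against 293, 134 and 651. In each of these lists the stages overlapped. Beside the 7983 of 12625 genes with a positive difference, one was found for 5 of 5 choroid plexus markers kept, 6 of 6 of cortex and striatum, 8 of 9 of oligodendrocyte precursors, 8 of 9 of meningeal fibroblasts, 10 of 13 of mature oligodendrocytes, 6 of 14 of neurons, 5 of 13 of microglia, 4 of 11 of astrocytes, 4 of 12 of endothelium and 0 of 3 ependymal markers. Their part in the separated genes was not tested. The mean level of the markers separated the stages in 0 of 19 lists of cell types and regions. The sum did so in 1, the hypothalamic markers (16.0, 13.9 and 18.7 against 27.8, 26 and 45.9), and overlapped once POMC was left out (13.9, 11.2 and 14.6 against 10.4, 15.3 and 41.5). Of the 142 markers kept, 3 were higher and 0 lower in every postpuberty library (2.11%, beside 4.40% of all genes). These were POMC, the neuronal transcription factor NEUROD6 (0.0706, 0.418 and 0.553 against 2.76, 0.962 and 0.956) and the haemoglobin gene HBB (1.05, 0.197 and 0.809 against 1.1, 1.08 and 5.07), which did not separate the stages after upper quartile scaling.

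Libraries of 1 stage differed in tissue content beyond neurons. Among the 6 libraries, choroid plexus markers were highest in Postpuberty 3, with a sum of 824 against 97.8 to 442 in the other 5, and the choroid plexus gene TTR had 337, 9.07 and 32.5 against 47.1, 36.9 and 723. Among the same libraries, lymphocyte markers were also highest in Postpuberty 3 (100.1) and next in Prepuberty 1 (56.4). Mural cell markers were highest in Postpuberty 1, with 698 against 105 to 250.3 in the other 5. CBLN1, TH and PRL, too, were highest in Postpuberty 1.

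**Figure D4:**
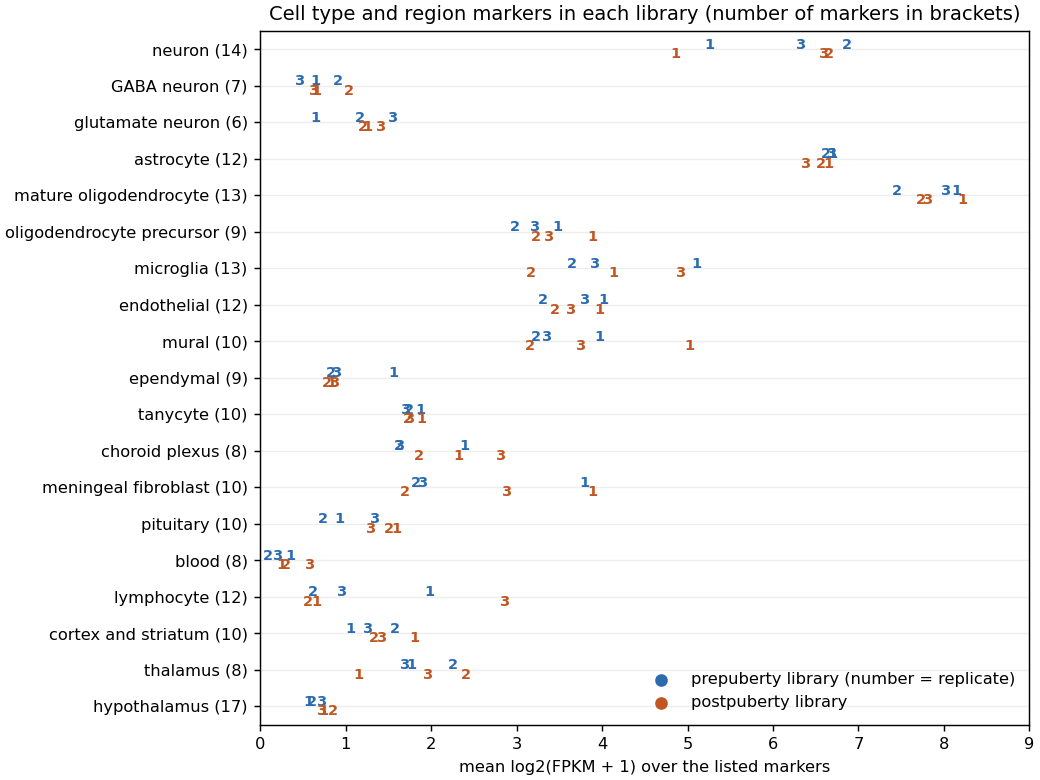
Each row is a list of cell type or region markers with its number of markers in brackets, and each digit is a library (blue prepuberty, orange postpuberty, the digit being the replicate) placed by the mean log2(FPKM + 1) of the list on the horizontal axis. The stages overlap in all 19 lists, and library 1 of both stages has the lowest neuron level.

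The comparison was repeated in limma with a marker level held constant. With the mean level of the neuron markers as a covariate limma called 0 genes, and 265 of the 12625 had an unadjusted p below 0.05. With the mature oligodendrocyte markers in its place, limma called 0 and 289 had such a p. The covariates differed little between the stages, averaging 6.15 and 6.04 for neurons and 7.87 and 7.92 for mature oligodendrocytes on the log2(FPKM + 1) scale, so these fits say little of how far cell mix entered the differences. With 6 libraries and a single marker level per fit, a mix of several cell types was not adjusted for.

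The puberty libraries did not side with either stage. Puberty 2, whose values were distributed unlike those of the other 8 libraries (9395 genes at an FPKM of at least 1), was left out here. Of the 399 higher genes, Puberty 1 and Puberty 3 both lay on the postpuberty side of the middle of the gap for 100 (25.1%), both on the prepuberty side for 122 (30.6%) and on different sides for 177 (44.4%). Of the 157 lower genes, both lay on the postpuberty side for 48 (30.6%), both on the prepuberty side for 47 (29.9%) and on different sides for 62 (39.5%). CBLN1, CHL1 and NT5DC2 were thus as in postpuberty and P3H3 and PCBP4 as in prepuberty, while ITPR1 was as in postpuberty and CRKL as in prepuberty.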

How the data were processed

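Hypothalamic poly(A) RNA of 9 Dolang ewes, 1 library per animal, was sequenced. The authors trimmed reads with Trimmomatic, aligned them with HISAT2 to ARS-UI_Ramb_v3.0 and quantified transcripts with StringTie. The deposited values are FPKM per transcript, although described as raw counts, so depth is not part of them and no count test was run. The authors' own test used RUVseq and edgeR, whose input and output were not used here. FPKM of the 76682 mRNA transcripts (of 76684) matched to a RefSeq symbol was summed per gene. Of the 115108 transcripts, 22600 assembled ones were left out, as were RefSeq noncoding transcripts and entries of other kinds. Genes averaging 1 FPKM or more in either stage were tested with limma 3.58.1 (R 4.3.3, variance trend) on log2(FPKM + 1), using the 6 libraries of both stages, with Benjamini-Hochberg adjustment over all 12625 genes. Named genes are the 15 per direction with the widest gap (2 per direction for LOC identifiers) and every member of 19 marker and 23 function lists that separated the stages; others (PRL, SLC6A3 and those in the closing section) were chosen after their values were seen. Members and lists were chosen with earlier results of these data known. Coordinates are from RefSeq. Same-numbered libraries were not paired. Alternatives changed the pseudocount, filter, scaling, transcripts, libraries, variance model, block and marker covariates. Figures used matplotlib 3.10.9 in Python 3.11.15.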

Additional observations from a re-analysis of the deposited data

How the results depend on the processing

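Limma called 0 genes in the 6 libraries under every alternative that kept all of them, and between 0 and 3 when 1 library was left out, 3 without Prepuberty 1. The number with an unadjusted p below 0.05, 187 as reported, was 84 with a filter at a mean FPKM of 5, 332 without a filter, 97 with all 9 libraries in the fit (235 with 8, without Puberty 2) and 289 with the oligodendrocyte markers as a covariate. It lay between 182 and 382 when 1 library was left out, 382 without Prepuberty 2. With the replicate number as a block it was 296. The numbers do not mark pairs: same-numbered libraries correlated at 0.263, 0.522 and -0.085 in their deviations from the stage means, and Prepuberty 1 correlated best with Postpuberty 3 (0.31). The 556 genes that separated the libraries became 268 (197 higher, 71 lower) at a filter of 5 and 880 (593 higher, 287 lower) without a filter, as fewer or more genes were compared, and between 1152 and 2231 when 1 library was left out, since fewer libraries separate more easily. The most abundant transcript alone and genes above 0 in all 6 libraries, both settings chosen after seeing the data, gave 621 and 551, of which 228 higher and 102 lower genes in the first setting and 396 and 155 in the second were among the 556. The named genes kept their direction in all 1597 values under the alternatives. As nearly all were chosen because they separate the libraries, this was largely fixed in advance and is no support for them. Of these values, 1 passed the threshold, RPL37A without Prepuberty 1. The numbers of separated list members stayed within 1.5 times in 438 values and moved beyond it in 192, most lists holding 2 or fewer. FPKM carries no depth, so no counting interval can be given.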

Other observations

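The machinery that carries proteins out of the endoplasmic reticulum and through the Golgi held several genes that were higher in every postpuberty library. This list was drawn up after its values were seen and has no test. Of 36 coat, tethering and cargo proteins kept (COPI, COPII, COG and p24), 6 were higher and 0 lower (16.7%, beside 4.40% of all genes), at a median difference of 0.12, beside 0.05 over all genes. COPB1, a COPI coat subunit, had 5.69, 6.45 and 5.93 in prepuberty and 10.9, 9.74 and 8.84 in postpuberty, a difference of 0.62 (SE 0.15). TMED7, a cargo receptor of early secretion, had 29.5, 30.9 and 26.7 against 37.6, 32.3 and 35.3, and the tether subunits COG1 and COG4 had differences of 0.17 (SE 0.13) and 0.32 (SE 0.15). SEC13 and SEC23B of the COPII coat had 0.22 and 0.13. After upper quartile scaling 4 of the 36 were higher, beside 1.93% of all genes, and the median was 0.06. Of 45 enzymes of N-glycan and GPI anchor synthesis, also listed after the values were seen, 5 were higher and 1 lower (13.3%, beside 4.40% of all genes), at a median of 0.08. After upper quartile scaling 4 were higher and 2 lower, beside 1.93% and 1.83% of all genes. After quantile normalization 2 were higher and 1 lower, beside 1.98% and 2.09% of all genes. B4GALT2, a galactosyltransferase, had 6.49, 6.57 and 4.39 against 12.6, 8.48 and 11.4, a difference of 0.79 (SE 0.22). ALG6, a glucosyltransferase of the N-glycan precursor, had 1.72, 1.96 and 1.7 against 2.55, 2.38 and 2.45, while B4GALT1, a galactosyltransferase of the Golgi, was lower, with 4.25, 1.35 and 2.44 against 1.13, 1.28 and 0.864. PMM2, PIGA and PIGG had differences of 0.25, 0.32 and 0.45. Limma called 0 genes of either list, with 1 gene of each list at an unadjusted p below 0.05. The span of ALG6 shares 32508 bases with ITGB3BP, and those of COG1 and PIGA also overlap a neighbour.

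Prepuberty 1 stood apart from the other prepuberty libraries in a few genes. ASIP, the agouti signalling protein, had 54.7, 0.345 and 0.276 in prepuberty. Its postpuberty values were 47.0, 49.5 and 99.1, and its puberty values 64.9, 446 and 48.2. RPL37A had the same pattern, with 363, 2060 and 445 in puberty. RXFP2, a relaxin-family receptor, was listed at 0 in Prepuberty 1, had 27.1 and 15.7 in Prepuberty 2 and 3, had 29.8, 0 and 0.0435 in puberty and was listed at 0 in all 3 postpuberty libraries. Without Prepuberty 1 the log2 differences of ASIP, RPL37A and RXFP2 were 5.57, 6.29 and -4.44, with limma adjusted p = 0.0357, 0.0313 and 0.0357. With all 6 libraries limma called 0 genes, and 187 had an unadjusted p below 0.05.

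HOX genes, which mark the hindbrain and spinal cord and are normally silent in the forebrain, were present in some libraries. Their FPKM summed to 35.8, 3.38 and 11 in prepuberty, to 16.4, 13.6 and 36.2 in puberty and to 4.72, 3.8 and 41.1 in postpuberty. HOXA5 had 2.65 in Prepuberty 1 and 7.74 in Postpuberty 3 and was listed at 0 in Prepuberty 2, Postpuberty 1 and Postpuberty 2. Among the 6 libraries of prepuberty and postpuberty, Prepuberty 1 and Postpuberty 3 had the highest HOX sums and also the highest choroid plexus and lymphocyte sums. Puberty 3 had a choroid plexus sum of 7807 and a lymphocyte sum of 15.7. This list was drawn up after its values were seen.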
